A study of Homo sapiens with 12 samples.

Results

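The 9 immediate-early genes described here were EGR1, EGR3, IER2, IER3, IER5, ZFP36, ZFP36L1, ZFP36L2 and NR4A1. They were taken by name, as the rows of a gene count table whose Ensembl identifiers carry these symbols, and they are 9 of 59410 genes in that table. All 9 were found, and 8 passed the filter on low counts that left 23375 genes for testing. EGR3 did not pass and is described by its counts. The genes were followed across 12 PRO-seq libraries of T47D cells, a human breast cancer line that carries estrogen receptor alpha. PRO-seq sequences the RNA that engaged RNA polymerases are extending, so it reads transcription at the moment of harvest and not the store of finished RNA.

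The libraries formed 6 groups of 2. In starved cells, that is cells deprived of hormone for 3 days, one group received vehicle (0.1% DMSO) and the other 1 nM estradiol. In complete medium, after 3 days of growth, 4 groups received vehicle (0.1% DMSO) or 100 nM of fulvestrant, of raloxifene or of tamoxifen. All treatments lasted 1 h. The libraries of each group are called 3 and 4, as in the labels' descriptions, although the titles call them 1 and 2. The labels do not state whether the 2 libraries of a group are separate cultures. The p-values therefore rest on a spread between libraries that may be technical only. T47D is a single line, and a value read from many cells at once cannot tell fewer transcribing cells from less transcription per cell.

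Immediate-early genes are transcribed within minutes of a stimulus such as serum, a growth factor or stress, without new protein synthesis. Many are switched on through the MAP kinase pathway, which acts on serum response factor and its partners, the ternary complex factors, bound at a DNA element called the CArG box. Estradiol activates its receptor at estrogen response elements and, in breast cancer cells, can also feed into kinase signalling. EGR1 and EGR3 encode zinc finger transcription factors that bind GC-rich DNA, and EGR3 is known as an estrogen-responsive gene in breast cancer cells. IER2 encodes a small nuclear protein, IER3 a stress-induced regulator of cell survival, and IER5 a relative of IER2 that is linked to heat shock factor 1. ZFP36 (tristetraprolin), ZFP36L1 and ZFP36L2 bind AU-rich messenger RNAs and recruit the CCR4-NOT complex, which shortens their poly(A) tails. NR4A1 (Nur77) is an orphan nuclear receptor.

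The DNA just upstream of 3 of these genes is shown because their transcription followed 3 different patterns across the groups. ZFP36 rose with estradiol, IER5 was lower after starvation, and EGR1, the classical serum-induced gene, passed no test. Each line gives the 250 bases before the annotated start in RefSeq (GRCh38.p14), 5′ to 3′ on the gene's strand, which is the plus strand for all 3. Capitals mark the motifs named in the next paragraph. The windows are chr5:138465229-138465478 for EGR1, chr19:39406597-39406846 for ZFP36 and chr1:181088450-181088699 for IER5.
EGR1: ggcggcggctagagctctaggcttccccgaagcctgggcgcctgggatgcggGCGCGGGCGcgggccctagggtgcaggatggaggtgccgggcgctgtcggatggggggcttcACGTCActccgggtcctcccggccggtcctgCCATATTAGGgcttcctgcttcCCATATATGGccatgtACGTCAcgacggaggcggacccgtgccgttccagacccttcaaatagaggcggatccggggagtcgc
ZFP36: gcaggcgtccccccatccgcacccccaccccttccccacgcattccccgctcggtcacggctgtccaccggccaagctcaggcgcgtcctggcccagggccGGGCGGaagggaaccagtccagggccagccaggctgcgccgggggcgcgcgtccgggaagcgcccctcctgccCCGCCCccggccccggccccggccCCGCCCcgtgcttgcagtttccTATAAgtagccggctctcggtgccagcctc
IER5: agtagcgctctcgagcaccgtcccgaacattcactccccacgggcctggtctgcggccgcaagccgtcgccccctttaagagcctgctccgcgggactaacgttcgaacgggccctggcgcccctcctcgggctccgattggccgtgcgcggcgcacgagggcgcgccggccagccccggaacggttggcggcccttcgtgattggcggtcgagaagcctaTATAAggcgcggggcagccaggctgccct

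The motif TATAA was searched on the gene's strand, and the others on both strands. These were the CArG box, the AP-1 type site TGANTCA, the estrogen response element half-site AGGTCA and the core of the whole element, GGTCANNNTGACC. The GC box GGGCGG, the EGR type site GCGNGGGCG and ACGTCA, the core of a cyclic AMP response element, were searched as well. The first 5 bases of GGTCANNNTGACC also lie within AGGTCA. Positions count back from -1, the base before the start. The EGR1 window held a CArG box at -105 to -96 and another at -83 to -74. It also held ACGTCA at -136 and -67, and GCGNGGGCG at -198. The ZFP36 window held TATAA at -30 to -26 and GGGCGG at -149, -76 and -52. The IER5 window held TATAA alone, at -29 to -25.

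Neither AGGTCA nor GGTCANNNTGACC was found in any of the 3 windows. Among 35116 windows of the same length, TATAA was in 13.6%, the CArG box in 1.16%, ACGTCA in 7.1% and TGANTCA in 6.57%. AGGTCA was in 12.1%, GGTCANNNTGACC in 0.0399%, GGGCGG in 42.6% and GCGNGGGCG in 8.41%. Of the other genes, the IER2 window held 3 copies of GGGCGG, and the 2 start sites listed for ZFP36L1 and for NR4A1 held no CArG box or TATAA. The first ZFP36L1 start held AGGTCA on the opposite strand, at -206. The second held ACGTCA at -52 on the opposite strand and at -50 on the gene's strand. The second NR4A1 start held GGGCGG at -196. Windows were searched for 6 of the 9 genes, with 8 start sites between them. No window of EGR3, IER3 or ZFP36L2 was searched, so motifs upstream of these genes are not known here. A match describes letters and is neither a bound site nor a cause, and a missing match says only that these letters are not in this window.

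Levels are given as CPM, the counts of a gene relative to its library's total, scaled between libraries by TMM (trimmed mean of M values), as mean ± SD of 2 libraries. Log2 fold changes come with ± their standard error from edgeR's quasi-likelihood fit to all 12 libraries. A gene is said to have risen or fallen where its Benjamini-Hochberg adjusted p over all 23375 tested genes, from edgeR's quasi-likelihood test, was under 0.05. Groups are said not to overlap where every library of one lay above every library of the other. With 2 libraries a group this is common without any difference, and its share among all tested genes was not counted. Library totals ran from 3682311 to 7856803 counts. Estradiol raised GREB1, a classical estrogen receptor target, in starved cells by 2.22 ± 0.055 (log2). Luminal epithelial markers were transcribed throughout (9 of 9 tested, 4041 to 5952 summed CPM), as the T47D label implies. The basal keratin genes KRT5 and KRT14 stayed at or under 0.271 CPM, and HBB had 0 counts. Some markers of other cell types had signal, among them TP63 (basal, 3.65 to 8.10 CPM), COL1A1 (fibroblast, 16.0 to 23.9 CPM) and CD68 (macrophage, 17.3 to 25.9 CPM), and their part in the results was not tested.

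Per kilobase of annotated gene span, over all 12 libraries, ZFP36L1 had the highest value of the set at 25.1 CPM per kilobase. Which part of each gene was counted is not known, so the order of these values need not be that of transcription. IER5 followed at 16.0, ZFP36L2 at 10.4, ZFP36 at 9.69, IER3 at 8.01 and IER2 at 7.65. The order below ZFP36L1 differed between groups: in starved vehicle ZFP36L2 (16.7) stood above IER5 (12.1), and with estradiol ZFP36 (17.2) stood above IER5 (12.4), IER3 (11.8) and ZFP36L2 (11.1). EGR1 stood at 1.35, NR4A1 at 0.668 and EGR3 at 0.145 CPM per kilobase. NR4A1 is annotated over 36672 bases (chromosome 12, 52022832 to 52059503), which lowers its value per kilobase. The spans of NR4A1 and IER3 (chromosome 6, 30743199 to 30744547) overlap antisense genes, NR4A1AS with 1 count and IER3-AS1 with 0. No source used here gives the strand setting of the counting, so reads of overlapping genes cannot be told apart.

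**Figure D1:**
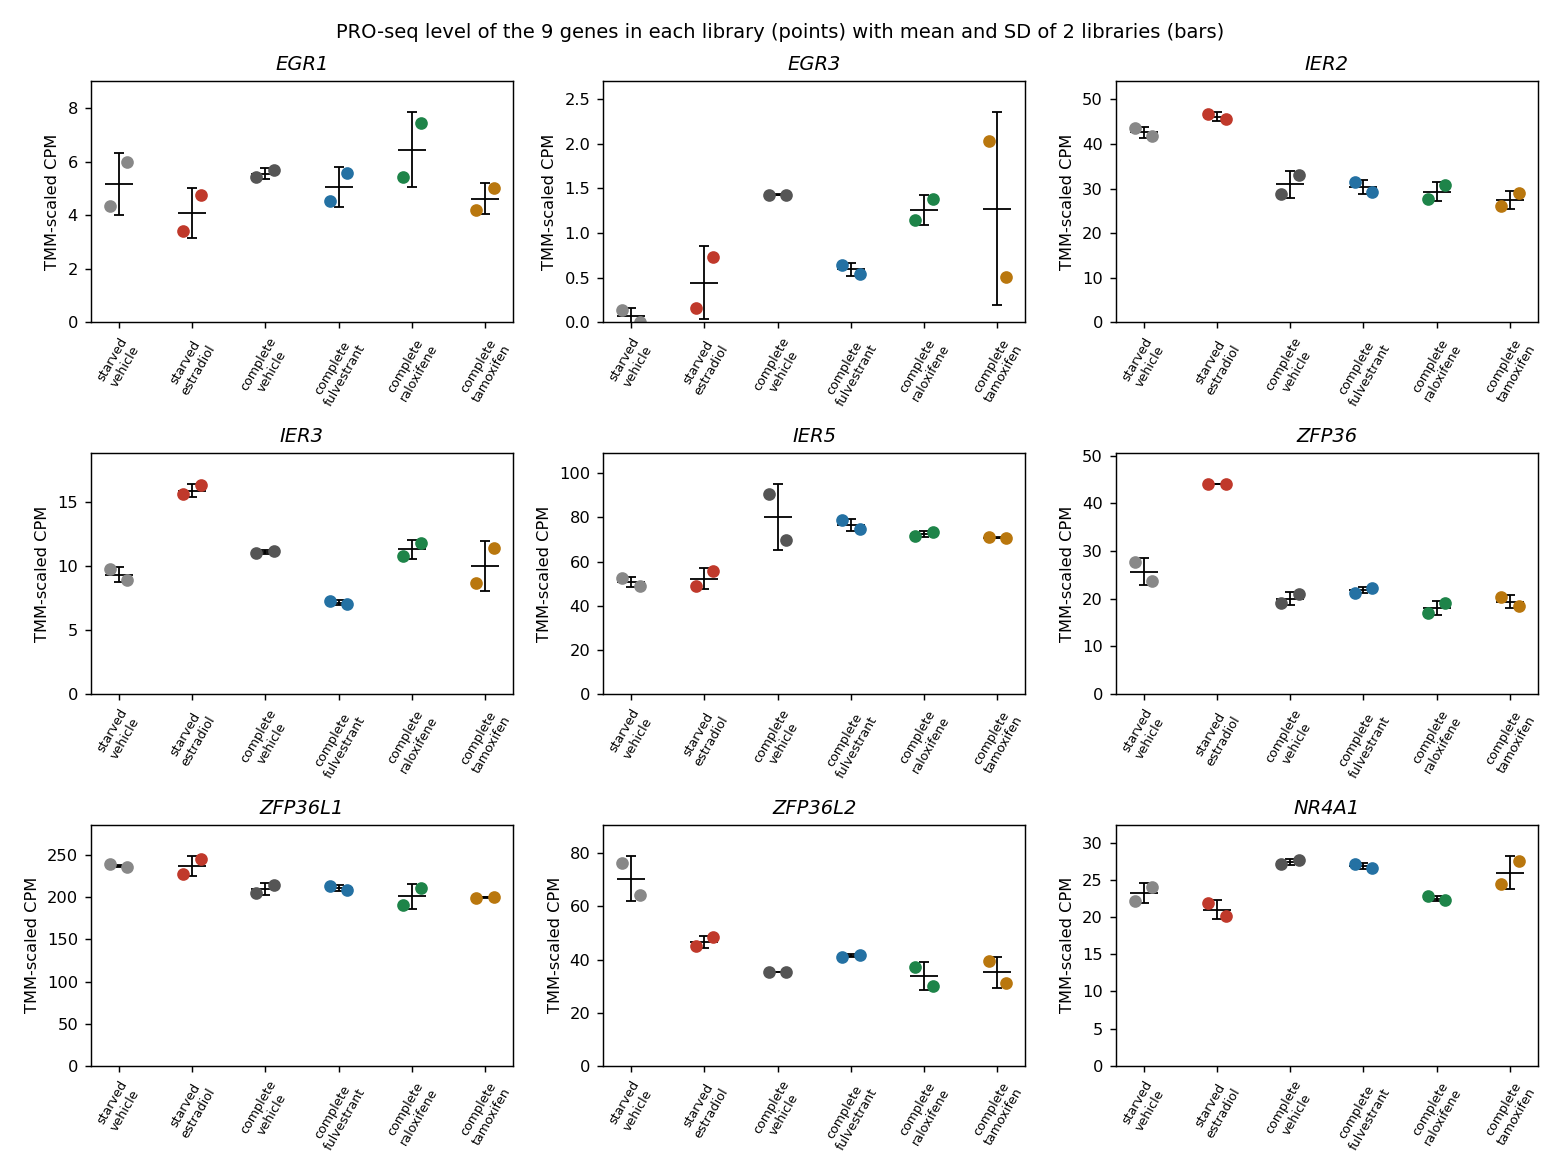
TMM-scaled CPM of each of the 9 genes (vertical axes, from 0) in the 6 groups (horizontal axes); points are libraries 3 (left) and 4 (right), and bars are the mean and SD of the 2. ZFP36 stood at 44.0 CPM in both estradiol libraries and between 17.0 and 27.6 in every other, ZFP36L2 was highest in starved vehicle (64.3 and 76.4), and IER5 was lower in all 4 starved libraries (49.0 to 55.5) than in the 8 from complete medium (69.6 to 90.7).

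The first comparison asked which of these genes starved cells transcribe more or less after 1 h of estradiol. ZFP36 and IER3 rose, ZFP36L2 fell, and the other 5 tested genes did not pass. The 2 that rose compare with 5.04% of all tested genes that rose, and the 1 that fell with 3.74% that fell. The median log2 fold change of the 8 was 0.01, and that of all tested genes was -0.01. At an unadjusted p under 0.05 the count was 3 of 8, beside 19.1% of all tested genes.

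ZFP36, the messenger RNA decay factor (ENSG00000128016, chromosome 19, 39406847 to 39409407), stood at 27.6 and 23.7 CPM in the vehicle libraries. Both estradiol libraries stood at 44.0 CPM. The groups did not overlap, and no library of any other group reached the estradiol level. The mean rose from 25.7 ± 2.79 to 44.0 ± 0.00668 CPM, a 1.71-fold change (log2 0.78 ± 0.105, adjusted p = 2.4e-05 by edgeR's quasi-likelihood test). The SD of 2 libraries that agree this closely understates the counting error, since they held 283 and 241 counts. The rise passed the test under all 19 alternative settings, with log2 values from 0.68 to 0.90.

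IER3, the survival regulator (ENSG00000137331), moved by a similar amount from a lower level. The vehicle libraries stood at 9.75 and 8.92 CPM and the estradiol libraries at 15.6 and 16.3. The 2 estradiol libraries were the highest of all 12. The log2 fold change was 0.76 ± 0.162 (edgeR adjusted p = 0.0032), a 1.70-fold rise from 9.33 ± 0.591 to 15.9 ± 0.494 CPM. The call was lost with DESeq2 (0.78, adjusted p = 0.084) and without starved vehicle library 4 (0.71, adjusted p = 0.054). The 19 alternatives gave adjusted p from 0.00044 to 0.084.

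ZFP36L2, a paralog of ZFP36 (ENSG00000152518, chromosome 2, 43222402 to 43226606), went the other way. It stood at 76.4 and 64.3 CPM with vehicle and at 45.1 and 48.4 CPM with estradiol. The groups did not overlap. The log2 fold change was -0.59 ± 0.109, from a mean of 70.4 ± 8.54 to one of 46.7 ± 2.32 CPM (edgeR adjusted p = 0.00077). ZFP36L1, the third paralog (ENSG00000185650, chromosome 14, 68787655 to 68796243), read 239 and 236 CPM with vehicle and 228 and 245 with estradiol. Its libraries overlapped, and its interval was narrow: the log2 difference was -0.01, with a 95% interval from -0.13 to 0.12. The 3 paralogs thus gave 3 different readings in the same 4 libraries.

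The other genes did not pass. IER2 read 43.5 and 41.7 CPM with vehicle and 46.8 and 45.5 with estradiol, a log2 difference of 0.12 with a 95% interval from -0.08 to 0.32. IER5 read 52.6 and 49.1 CPM against 49.0 and 55.5, a difference of 0.03 (interval -0.19 to 0.26). NR4A1 read 22.2 and 24.1 CPM against 21.9 and 20.1, a difference of -0.14 (interval -0.38 to 0.11). The IER2 and NR4A1 libraries did not overlap between the groups, whereas those of IER5 did. Such separation of 2 libraries from 2 is common without any difference.

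EGR1, the archetype of the class (ENSG00000120738, chromosome 5, 138465479 to 138469303), was transcribed at a low level, with 373 counts over all 12 libraries. It read 4.33 and 5.99 CPM with vehicle and 3.42 and 4.75 with estradiol. These overlapped. The difference was -0.35 ± 0.276 (edgeR adjusted p = 0.58), with a 95% interval from -0.92 to 0.23. A rise of the size seen for ZFP36 or IER3 lies outside that interval.

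The second comparison asked what 3 days of starvation did, with vehicle in both media. ZFP36L2, IER2, ZFP36 and ZFP36L1 were higher in starved cells, IER5 was lower, and 3 tested genes did not pass. The 4 higher compare with 9.10% of all tested genes that were higher, and the 1 lower with 9.67% that were lower. The median log2 difference was 0.04 for the 8 genes and 0.01 for all tested genes. At an unadjusted p under 0.05 the count was 6 of 8, beside 29.4% of all tested genes.

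ZFP36L2 differed most of the 8 tested genes. Its complete vehicle libraries stood at 35.3 and 35.4 CPM, and the starved ones at 76.4 and 64.3. Both starved libraries lay above every library of the other 5 groups. The log2 difference was 0.99 ± 0.115 (edgeR adjusted p = 1.9e-06), or 1.99-fold, and it passed under all 19 alternatives. The same 2 starved vehicle libraries serve as the reference for estradiol, so the rise here and the fall there rest on shared values.

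IER5 (ENSG00000162783, chromosome 1, 181088700 to 181092900) was the 1 gene that was lower. It read 90.7 and 69.6 CPM in complete medium and 52.6 and 49.1 after starvation. The groups did not overlap, though the 2 complete vehicle libraries lay far apart. The means were 80.1 ± 14.9 and 50.8 ± 2.43 CPM, a log2 difference of -0.67 ± 0.100 (edgeR adjusted p = 4.8e-05). The call held under all 19 alternatives, with log2 values from -0.82 to -0.45.

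IER2 (ENSG00000160888, chromosome 19, 13150411 to 13154911) read 28.8 and 33.0 CPM in complete medium and 43.5 and 41.7 after starvation. The log2 difference was 0.47 ± 0.103 (edgeR adjusted p = 0.0023). It was 0.37 without complete vehicle library 3, where the call was lost (adjusted p = 0.082).

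ZFP36 and ZFP36L1 passed narrowly. ZFP36 read 19.1 and 21.0 CPM in complete medium and 27.6 and 23.7 after starvation, a log2 difference of 0.37 ± 0.122 (edgeR adjusted p = 0.041). It kept the call under 11 of 19 alternatives. The call was lost with DESeq2 (adjusted p = 0.31), with no filter on low counts (0.056), and without starved vehicle library 3 (0.34) or complete vehicle library 3 (0.29) or 4 (0.076). It was also lost without estradiol library 3 (0.051) or 4 (0.053) and without fulvestrant library 3 (0.051). ZFP36L1 read 205 and 215 CPM against 239 and 236, a difference of 0.18 ± 0.059 (edgeR adjusted p = 0.038). Its call held under 14 of 19 alternatives and was lost with DESeq2 and without any 1 of the 4 vehicle libraries (adjusted p from 0.068 to 0.28). In each gene the libraries of the 2 groups did not overlap.

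NR4A1, IER3 and EGR1 did not pass. NR4A1 (ENSG00000123358) read 27.2 and 27.7 CPM in complete medium and 22.2 and 24.1 after starvation, a difference of -0.24 ± 0.112 (edgeR adjusted p = 0.15). IER3 read 11.0 and 11.2 CPM against 9.75 and 8.92, a difference of -0.24 ± 0.175. Libraries of these 2 genes did not overlap between the groups. EGR1 read 5.41 and 5.70 CPM against 4.33 and 5.99, which overlapped (-0.11, 95% interval -0.66 to 0.44).

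EGR3 (ENSG00000179388, chromosome 8, 22687659 to 22693480) was near the limit of detection, with 61 counts in all 12 libraries. Starved vehicle held 1 and 0 counts and estradiol 1 and 4. In complete medium, vehicle held 9 and 7, fulvestrant 4 and 3, raloxifene 9 and 5, and tamoxifen 15 and 3. Every complete-medium library held 3 counts or more, and 3 of the 4 starved libraries held 1 or 0.

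Summed over both libraries, EGR3 gave 1 count in starved vehicle (exact Poisson 95% interval 0.0253 to 5.57) and 16 in complete vehicle (9.15 to 26). At the scaled totals, complete vehicle stood 20.3-fold above starved vehicle, with an exact 95% interval from 3.16 to 852. Estradiol, with 5 counts, stood 5.97-fold above starved vehicle, with an interval from 0.668 to 283 that includes no change. These intervals cover counting error only. A fit with no filter on low counts called the starved value lower (edgeR adjusted p = 0.00074). Fits that left out 1 library had a looser filter, because their smallest group held 1 library. The gene entered them only through tamoxifen library 3 (15 counts, its highest), and without that library it did not pass. These fits reuse nearly the same counts and add no support. Their log2 differences for starvation ran from -6.13 to -3.21. The call was lost without starved vehicle library 4 and without complete vehicle library 3, and DESeq2 gave no adjusted p for it.

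**Figure D2:**
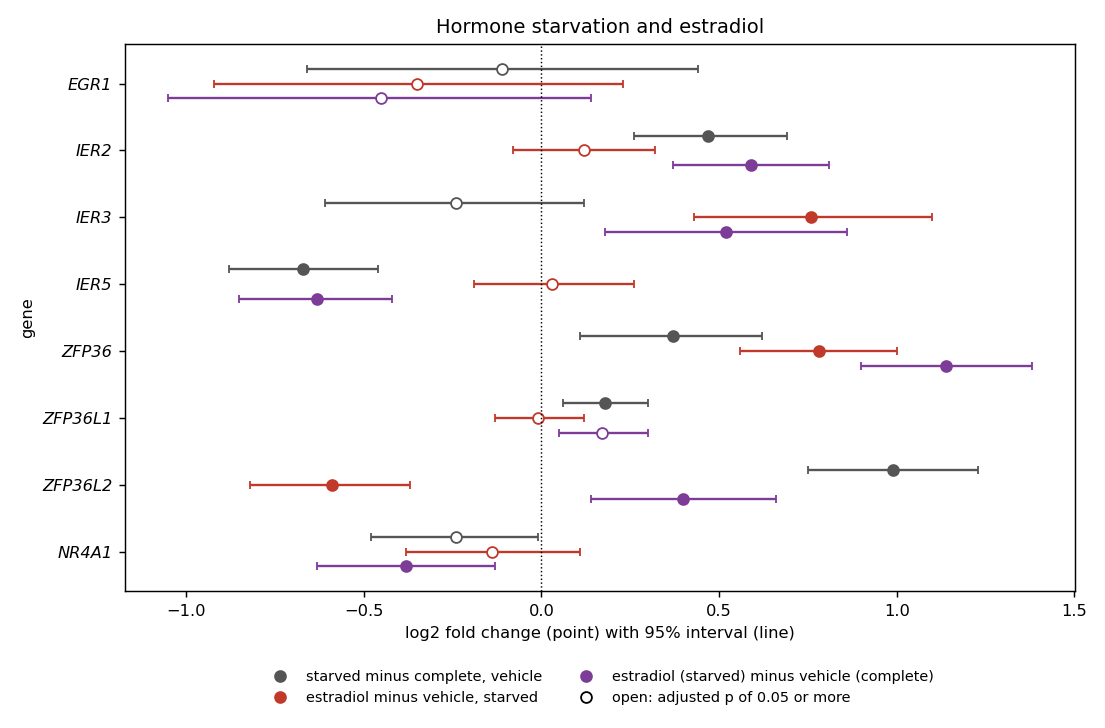
Log2 fold change (horizontal axis) of the 8 tested genes (vertical axis) for starvation, for estradiol in starved cells, and for estradiol in starved cells against vehicle in complete medium; lines are 95% intervals and filled points have an adjusted p under 0.05. ZFP36 lies above 0 in all 3 (0.37, 0.78 and 1.14), IER5 lies below 0 in the 2 that compare starved with complete medium (-0.67 and -0.63), and ZFP36L2 is 0.99 for starvation and -0.59 for estradiol.

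Estradiol-treated starved cells were also set against vehicle in complete medium, to place the hormone-treated level beside that of normally fed cells. This comparison shares its libraries with the first 2 and is their sum in the fit, so it adds no independent evidence. ZFP36, IER2, IER3 and ZFP36L2 were higher, and IER5 and NR4A1 were lower. The 4 higher compare with 8.09% of all tested genes, and the 2 lower with 8.11%. At an unadjusted p under 0.05 the count was 7 of 8, beside 27.3% of all tested genes. The median log2 difference was 0.29, against 0.00 over all tested genes.

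ZFP36 was 2.21-fold higher (log2 1.14 ± 0.115, edgeR adjusted p = 4.3e-07). IER2 was higher by 0.59 ± 0.104 (edgeR adjusted p = 0.00038), with 46.8 and 45.5 CPM against 28.8 and 33.0. IER5 was lower by a log2 difference of -0.63 ± 0.103 (edgeR adjusted p = 0.00014). These 3 calls held under all 19 alternatives.

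IER3 (0.52 ± 0.165), ZFP36L2 (0.40 ± 0.124) and NR4A1 (-0.38 ± 0.118) passed with edgeR adjusted p of 0.035, 0.031 and 0.031. Each lost its call with DESeq2, and without any 1 of the 4 libraries compared (adjusted p from 0.073 to 0.3 over these fits). NR4A1 also lost it in edgeR with no filter on low counts (adjusted p = 0.15). NR4A1 read 21.9 and 20.1 CPM with estradiol and 27.2 and 27.7 in complete vehicle. ZFP36L1 missed the threshold (0.17 ± 0.060, edgeR adjusted p = 0.053) and passed it under 7 of 19 alternatives. EGR1 did not pass (-0.45 ± 0.284, interval -1.05 to 0.14).

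By group, the order of levels differed between genes. For ZFP36L2, starved vehicle (70.4 CPM) stood above estradiol (46.7), and estradiol above fulvestrant (41.5) and complete vehicle (35.4), with tamoxifen (35.2) and raloxifene (33.7) last. The last 3 groups overlapped by library. For ZFP36, estradiol (44.0) stood above starved vehicle (25.7), then fulvestrant (21.8), complete vehicle (19.1 and 21.0 by library), tamoxifen (19.4) and raloxifene (18.0). The lowest starved vehicle library (23.7) still lay above every complete-medium library (22.3 at most).

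For IER2, estradiol (46.1) and starved vehicle (42.6) stood above complete vehicle (30.9), fulvestrant (30.4), raloxifene (29.3) and tamoxifen (27.4). Neighbours among these last 4 overlapped by library. For IER5, complete vehicle (80.1), fulvestrant (76.6), raloxifene (72.5) and tamoxifen (70.8) stood above estradiol (52.3) and starved vehicle (50.8), which overlapped each other. For IER3, estradiol (15.9) stood above raloxifene (11.3), complete vehicle (11.1) and tamoxifen (10.0). Starved vehicle (9.33) overlapped tamoxifen, and fulvestrant (7.14) came last, below every other library.

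NR4A1 ran from complete vehicle (27.4), fulvestrant (26.9) and tamoxifen (26.0) down to starved vehicle (23.2), raloxifene (22.5) and estradiol (21.0). The first 3 of these groups lay above the last 3 in every library. For EGR1, raloxifene (6.44) was highest and estradiol (4.08) lowest, and the libraries of neighbouring groups overlapped throughout. ZFP36L1 ran from 237 CPM in both starved groups through fulvestrant (211), complete vehicle (209.8) and raloxifene (201) to tamoxifen (199.7). All 4 starved libraries (228 to 245 CPM) lay above the 8 of complete medium (190.2 to 215).

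The drug comparisons asked whether 1 h of an estrogen receptor antagonist or modulator at 100 nM changes these genes in complete medium. Fulvestrant is a steroidal antagonist under which the receptor protein is degraded, whereas raloxifene and tamoxifen are non-steroidal modulators, a benzothiophene and a triphenylethylene. None of the 8 tested genes passed edgeR's quasi-likelihood test for any drug, and none with an adjusted p from DESeq2 passed. At an unadjusted p under 0.05 the counts were 1 for fulvestrant, 1 for raloxifene and 0 for tamoxifen, beside 7.50%, 9.78% and 6.55% of all tested genes. Over all tested genes, 1.16% passed for fulvestrant, 0.569% for raloxifene and 0.0513% for tamoxifen, and a count of 0 among 8 is near these shares. With no filter on low counts, 354 genes passed for raloxifene and 93 for tamoxifen, against 133 and 12 with it. The 3 comparisons share the complete vehicle libraries. Of 3 estrogen-induced check genes (GREB1, PDZK1 and PGR), 3 fell with fulvestrant (log2 from -1.69 to -0.63) and 3 with raloxifene (-0.58 to -0.29). With tamoxifen 0 of the 3 passed (-0.28 to -0.20), though 3 had an unadjusted p under 0.05. The 0 counts of the set thus stand beside unlike readings of the check genes.

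IER3 with fulvestrant was the largest of these differences. It read 11.0 and 11.2 CPM with vehicle and 7.27 and 7.01 with fulvestrant, the 2 lowest values of all 12 libraries. The log2 difference was -0.63 ± 0.191, with a 95% interval from -1.03 to -0.23 (unadjusted p = 0.00362, edgeR adjusted p = 0.19). Over the 19 alternatives the adjusted p ran from 0.097 to 1. With raloxifene IER3 read 10.8 and 11.8 CPM, a difference of 0.01 (interval -0.36 to 0.38). With tamoxifen it read 8.67 and 11.4 CPM, which straddled vehicle (-0.16, interval -0.52 to 0.21).

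NR4A1 with raloxifene read 22.8 and 22.3 CPM against 27.2 and 27.7 with vehicle. The groups did not overlap, and the difference was -0.28 ± 0.118 (edgeR adjusted p = 0.44). With fulvestrant NR4A1 read 27.1 and 26.6 CPM and with tamoxifen 24.4 and 27.5.

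The remaining differences from vehicle had intervals that included 0. IER5 with tamoxifen read 71.0 and 70.6 CPM against 90.7 and 69.6 in vehicle, a difference of -0.19 ± 0.097 (interval -0.39 to 0.01). For EGR1 they were -0.14 with fulvestrant, 0.15 with raloxifene and -0.27 with tamoxifen, with intervals between -0.84 and 0.71 that leave room for sizeable change. For genes other than EGR1 and IER3, every interval against vehicle lay between -0.52 and 0.49. ZFP36L2 with fulvestrant read 41.0 and 41.9 CPM against 35.3 and 35.4, a difference of 0.23 (interval -0.04 to 0.49). The median differences over the 8 genes were -0.02 for fulvestrant, -0.08 for raloxifene and -0.12 for tamoxifen, against 0.01, 0.01 and 0.00 over all tested genes.

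**Figure D3:**
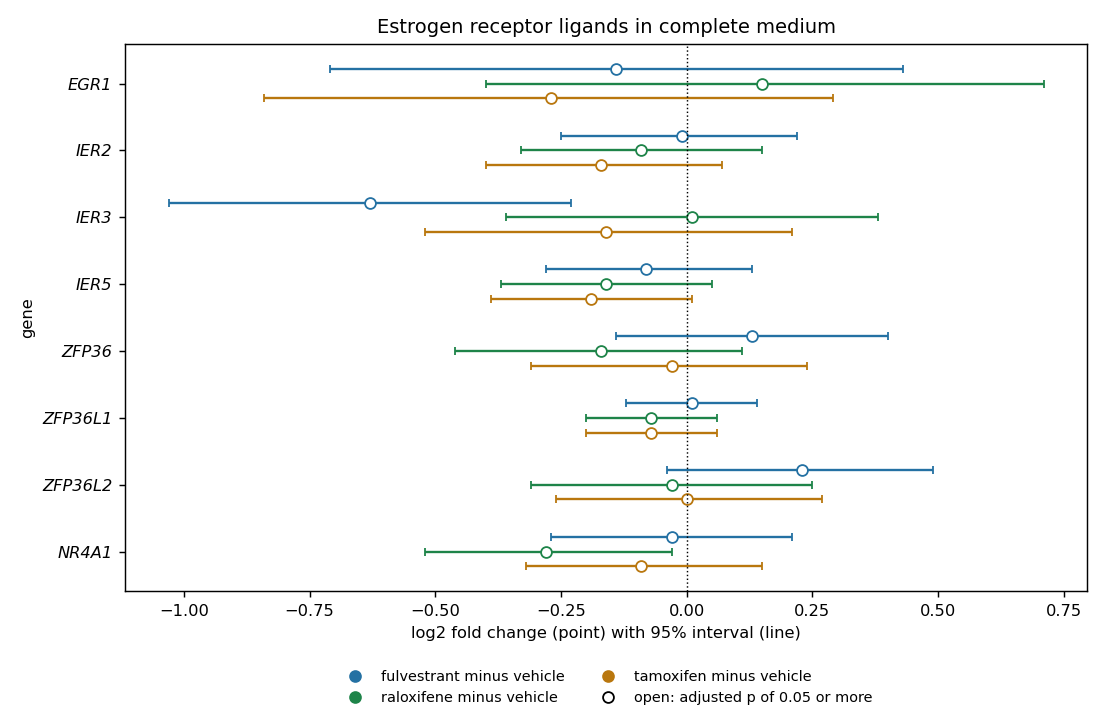
Log2 fold change against complete vehicle (horizontal axis) of the 8 tested genes (vertical axis) for each drug at 100 nM for 1 h; lines are 95% intervals, and all points are open because no adjusted p was under 0.05. IER3 with fulvestrant (-0.63) and NR4A1 with raloxifene (-0.28) are the 2 points whose intervals do not reach 0.

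The drugs were also compared with each other in 3 pairs at their shared dose and time. No member passed edgeR's quasi-likelihood test in any pair. None with an adjusted p from DESeq2 passed, and DESeq2 gave none for EGR1 and IER3 in tamoxifen against fulvestrant. Over all tested genes, 0.103% passed for raloxifene against fulvestrant, 0.462% for tamoxifen against fulvestrant and 0.00428% for tamoxifen against raloxifene. At an unadjusted p under 0.05 the counts were 3, 1 and 0 of 8, beside 4.90%, 5.08% and 4.54% of all tested genes.

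IER3 was 0.64 ± 0.191 higher with raloxifene than with fulvestrant (interval 0.24 to 1.04, edgeR adjusted p = 0.69). It was 0.47 ± 0.189 higher with tamoxifen than with fulvestrant (interval 0.08 to 0.87, edgeR adjusted p = 0.82). In both pairs the libraries did not overlap. Between tamoxifen and raloxifene the IER3 difference was -0.17 (interval -0.53 to 0.20). ZFP36 was -0.30 with raloxifene against fulvestrant (interval -0.58 to -0.02), and NR4A1 was -0.25 in the same pair. The pairs share libraries with one another, and a p that misses the threshold does not show that the drugs act alike.

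The closest relatives of the set gave a mixed reading. Of 5 relatives, 4 were tested, and EGR4 held 0 to 2 counts per library. IER5L, the paralog of IER5, read 18.9 and 15.9 CPM in complete vehicle, 25.5 and 28.1 in starved vehicle and 35.5 and 34.5 with estradiol. It rose with starvation (0.61 ± 0.133, edgeR adjusted p = 0.0024) and with estradiol (0.39 ± 0.116, edgeR adjusted p = 0.04), whereas IER5 itself was lower after starvation.

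NR4A2, the paralog of NR4A1, read 11.0 and 13.2 CPM in complete vehicle and 18.8 and 18.6 in starved vehicle. It was higher after starvation (0.64 ± 0.159, edgeR adjusted p = 0.0065), where NR4A1 read -0.24. With estradiol NR4A2 stood at 23.3 and 23.7 CPM (0.33 ± 0.139, edgeR adjusted p = 0.18). EGR2 (0.90 ± 0.525) and NR4A3 (0.46 ± 0.354) did not pass for estradiol. None of the 4 tested relatives passed for any drug.

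Other immediate-early genes were a list of 38, chosen with earlier results of these data known, of which 37 were tested. With estradiol 11 rose and 1 fell, beside 5.04% and 3.74% of all tested genes. The median log2 fold change of the 37 was 0.22. The 4 with the smallest adjusted p were TIPARP (2.02 ± 0.103), an ADP-ribosyltransferase gene, PHLDA1 (1.17 ± 0.078), the AP-1 gene FOSL2 (1.03 ± 0.089) and MAFF (1.81 ± 0.175), a small MAF factor gene. The 1 that fell was PLK2 (-0.41 ± 0.074), a kinase gene named here after its value was seen. The 2 largest values of the set, 0.78 and 0.76, lie below these 4. No difference between the lists was tested.

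After starvation, 9 of the 37 were higher and 7 lower, beside 9.10% and 9.67% of all tested genes. The median of the 37 was 0.02. DUSP4, a MAP kinase phosphatase gene, differed by -1.98 ± 0.117 and PHLDA1 by -1.01 ± 0.080. JUN, another AP-1 gene, was higher by 1.02 ± 0.097 and the matricellular gene CCN1 by 0.84 ± 0.095. For estradiol in starved cells against complete vehicle, 14 were higher and 4 lower, beside 8.09% and 8.11% of all tested genes. They were led by TIPARP (1.40 ± 0.101), JUN (1.17 ± 0.098), DUSP4 (-1.33 ± 0.112) and FOSL2 (1.10 ± 0.093).

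In the drug groups 4 of the 37 fell with fulvestrant, 3 with raloxifene and 0 with tamoxifen by edgeR's quasi-likelihood test. None rose. Over all tested genes, 1.16%, 0.569% and 0.0513% passed in either direction. At an unadjusted p under 0.05 the counts were 7, 8 and 7 of 37, beside the 7.50%, 9.78% and 6.55% of all tested genes given above. With fulvestrant the genes that fell were PHLDA1 (-0.56 ± 0.079), FOSL2 (-0.68 ± 0.111), TIPARP (-0.63 ± 0.118) and KLF6 (-0.45 ± 0.106), a zinc finger factor gene. With raloxifene they were TIPARP (-0.61 ± 0.119), KLF6 (-0.55 ± 0.108) and FOSL2 (-0.50 ± 0.110). In the same libraries IER3 read -0.63 ± 0.191 with fulvestrant, which is as far from 0 as these genes but with a wider error. PHLDA1 was higher with tamoxifen than with fulvestrant (0.46 ± 0.078).

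**Figure D4:**
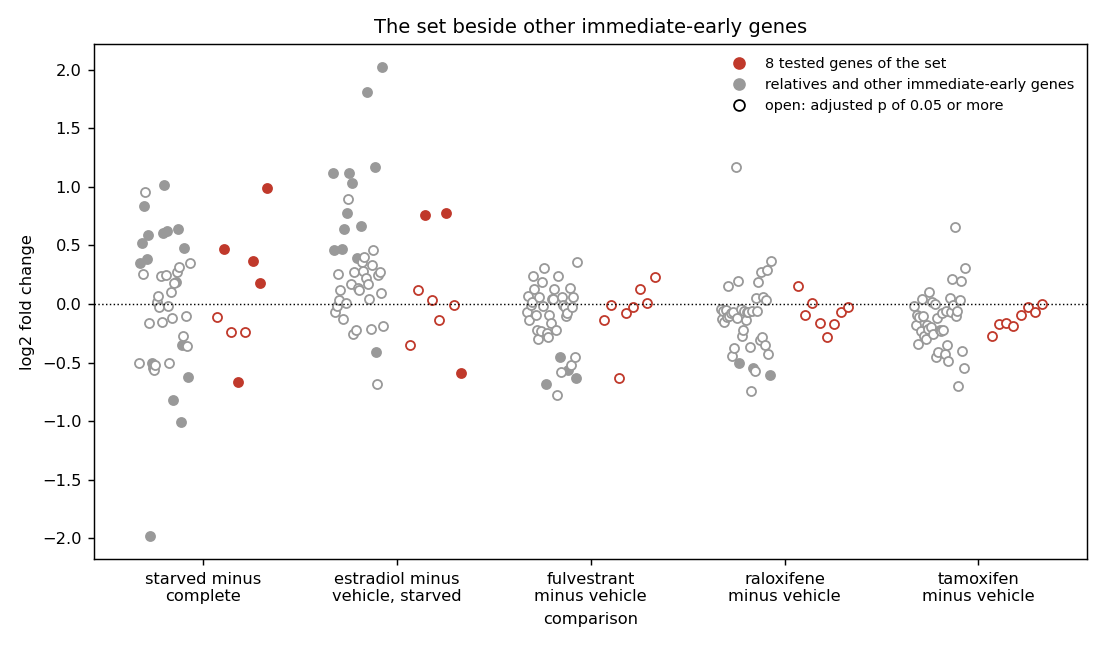
Log2 fold change (vertical axis) in 5 comparisons (horizontal axis) of the 8 tested genes of the set (red) and of their tested relatives and the other immediate-early genes (grey); filled points have an adjusted p under 0.05, and the sideways spread only separates points. The set lies between -0.59 and 0.78 for estradiol, where the grey points reach 2.02, and between -0.67 and 0.99 for starvation, where they reach -1.98.

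Genes that act on or with the set were followed as well. Among 6 genes of serum response factor and its partners, ELK4 rose with estradiol (0.28 ± 0.084) and ELK1 was lower after starvation (-0.31 ± 0.102). SRF itself did not pass in either (0.17 ± 0.117 and -0.17 ± 0.118). NAB2, a corepressor of EGR proteins, was lower after starvation (-0.48 ± 0.116) and did not pass for estradiol (-0.20 ± 0.125). NAB1 passed in neither comparison. Of all tested genes, 5.04% rose with estradiol and 9.67% were lower after starvation.

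Of 11 genes of the CCR4-NOT complex, which ZFP36 proteins recruit, 10 were tested. CNOT6, a deadenylase subunit, rose with estradiol from 173 ± 8.58 to 272 ± 1.56 CPM (0.65 ± 0.056, edgeR adjusted p = 3.9e-08). The other 9 did not pass for estradiol, and the median log2 fold change of the 10 was 0.05. Over all tested genes, 5.04% rose with estradiol. After starvation CNOT6 (-0.30 ± 0.057) and CNOT10 (-0.22 ± 0.071) were lower, beside 9.67% of all tested genes. None of these 3 lists had a gene that passed for any drug against vehicle.

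For each tested gene, the genes with the most similar course over the 12 libraries were sought among those with a mean of at least 50 counts. Likeness was the root mean square difference of log2 CPM after each gene was centred on its own mean, which rewards a shared size as well as a shared direction. This is a description over 12 libraries that share their media and differ in depth.

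Nearest to ZFP36 were DCUN1D3 (0.109), PRKCD (0.125), a protein kinase C gene, and ERRFI1 (0.125), an inhibitor of EGF receptor signalling. Nearest to IER3 were ABCC13 (0.135), GPR37L1 (0.140) and IPPK (0.157). Nearest to IER2 were TTC9 (0.064), RBPMS (0.076) and CSRP1 (0.077). For IER5 they were DBF4B (0.081), FAM83D (0.085) and DNMT1 (0.089), the maintenance DNA methyltransferase gene.

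For ZFP36L2 they were DOCK5 (0.129), ALAS1 (0.130) and ADAMTS19 (0.130). For NR4A1 they were TTC9C (0.055), STXBP5 (0.065) and ICE2 (0.070), and for ZFP36L1 PXYLP1 and CDK13-DT (0.044 each). EGR1 had LINC01611 (0.126), an unnamed gene (ENSG00000262202, 0.139) and ACAD9-DT (0.140). With 373 counts over the 12 libraries, EGR1 itself lies under the mean of 50 asked of the genes searched. Its course (SD of log2 CPM 0.270) may therefore be largely counting error. Small values for ZFP36L1 and NR4A1 go with their small spread over libraries (SD of log2 CPM 0.115 and 0.156), against 0.454 for ZFP36.

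Summed CPM of the luminal markers moved with the groups, being lowest in starved vehicle (4041 to 4053) and highest in complete vehicle (5873 to 5952), with 5631 to 5807 under estradiol. The list includes the hormone-dependent genes ESR1 and PGR. In complete medium it read 4879 to 5036 with fulvestrant, 5074 to 5600 with raloxifene and 5295 to 5576 with tamoxifen. Markers of other cell types were low, with 3.83 to 8.27 summed CPM for basal epithelium (1 of 3 tested), 16.8 to 24.5 for fibroblasts (1 of 3) and 4.36 to 10.1 for endothelium (2 of 3). Blood cell markers (2 of 4 tested) ran from 18.3 to 27.2, mostly CD68. Their part in the differences above was not tested.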

How the data were processed

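PRO-seq was measured in 12 T47D libraries. The authors deposited raw counts, whole numbers per Ensembl gene with no normalization. The build hg38 and the tools Bowtie2 2.4.4, cutadapt 1.8.1 and SAMtools 1.9 are named per the submitters' processing notes. Not given in the sources used here are the counting tool, its annotation, its strand setting and which part of a gene it counted, so promoter-proximal and gene-body polymerase cannot be told apart, nor PCR copies from separate molecules.

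The series text describes starvation and the labels' treatment text describes complete medium, so groups were taken from the labels' descriptions. Of 60605 gene identifiers, 142 had no symbol (0.28% of counts), and 1195 were left out because a larger identifier shared their symbol (0.074% of counts). Libraries within a group differed by more than sampling noise (chi-square per gene from 1.20 to 2.34, genes with at least 20 counts).

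The analysis used edgeR 4.0.16 in R 4.3.3: filterByExpr, TMM scaling and the quasi-likelihood test, with the 6 groups as the only term in 1 fit of 12 libraries, Benjamini-Hochberg adjustment over 23375 genes and a threshold of 0.05. Scripts were tested on simulated data. The 19 alternatives were DESeq2 1.42.0, its size factors in edgeR, unscaled libraries, no filter, a replicate block, summed identifiers, only the groups compared, and leaving out each library. Named genes were all 9 members, every relative, up to 4 genes per list and comparison by adjusted p, and the 3 genes most like each member (prior count 2), of which 1 is not reported here. Members and lists were chosen with earlier results of these data known. Promoter sequences came from RefSeq.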

Additional observations from a re-analysis of the deposited data

How the results depend on the processing

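Of 14 calls on the 8 tested genes, 7 held under all 19 alternatives and 7 were lost under at least 1; 1 value that did not pass (ZFP36L1, estradiol in starved cells against complete vehicle) passed under some. No called value changed sign, and 24 values that did not pass did. For starved against complete vehicle, 5 genes were called, 3 with DESeq2 and 2 to 6 when a library was left out, with 2 without complete vehicle library 3; the 6 include EGR3, which then passed the filter. For estradiol in starved cells against complete vehicle, 6 were called, 3 with DESeq2 and 3 to 7 when a library was left out, with 3 without estradiol library 4 or complete vehicle library 3 or 4. A lone library left in a group is assumed to vary like the other groups. For estradiol against vehicle, 3 were called and 2 to 3 elsewhere. The drug comparisons gave 0 throughout.

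Same-numbered libraries deviated together with r from 0.122 to 0.423 across genes, but the labels do not say that a number marks a shared culture, and with 2 libraries a group the numbers were not taken as pairs. With the replicate block, 3, 5 and 7 genes of the set were called in these comparisons (ZFP36L1 was added in the last, adjusted p = 0.01) and 0 for the drugs. Over all genes the replicate block raised the calls for fulvestrant from 270 to 498, raloxifene from 133 to 490, tamoxifen from 12 to 172, raloxifene against fulvestrant from 24 to 77, tamoxifen against fulvestrant from 108 to 242 and tamoxifen against raloxifene from 1 to 35. With no filter on low counts the last 5 were 354, 93, 90, 170 and 65. Fitting only the 2 groups compared gave 21 for tamoxifen, 66 for tamoxifen against fulvestrant and 0 for tamoxifen against raloxifene. With DESeq2, the calls over all genes were 1082 for estradiol (2051 by edgeR), 2301 for starvation (4386), 2029 for estradiol against complete vehicle (3788) and 87 for raloxifene (133). Without scaling, 45.7% of the estradiol calls were higher, against 57.4% with TMM. The depth limits EGR3 (61 counts) and EGR1 (373 counts) most.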
